A study of Mus musculus with 54 samples.

Results

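The comparison set arrays from mice that had gone through startle testing beside arrays from mice of the same strain and the same brain region that had not. All 54 arrays of the series entered it, chosen by the testing status in their labels, 18 labelled tested and 36 labelled untested. Each array measured RNA pooled from 3 male mice of 1 inbred strain, and there were 6 strains: C57BL6/J, C57L/J and C57BL10/J, C57BLKS/J, BalbC/J and C3H HeJ. The regions were hippocampus, striatum and brainstem, so each of the 18 strain-by-tissue groups held 1 tested and 2 untested arrays.

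All animals were untreated inbred mice with no transgene or drug, and the tested and untested mice of a strain differed, by the labels, in testing alone. Mice were housed 6 to a cage from postnatal day 40, testing began at day 50 and ran every other day over 5 days, and all mice were killed at day 60. Of the 12 mice of a strain 6 were tested. Tested mice heard a 120 dB startle sound of 40 ms, alone or 100 ms after a prepulse of 75 or 80 dB, over a background of 65 dB. The labels' protocol announces 6 strains but lists the others without C57BL10/J. With 6 tested mice and 3 tested pools of 3, and with 6 untested mice and 6 untested pools of 3, the tissues of a strain shared mice, so arrays of different tissues are not independent and p-values measure the spread between these arrays. Which mice went into which pool, and whether tested mice shared a cage, the labels do not say, so testing and cage cannot be told apart within a strain.

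Prepulse inhibition is the weakening of the startle reflex when a soft sound comes just before the loud one. The reflex runs through a short brainstem circuit, and hippocampus and striatum are among the forebrain regions that adjust it. Loud, unpredictable sound and handling are also mild stressors, and a stressor is known to switch on immediate early genes such as Fos in active neurons within the hour, glucocorticoid-responsive genes such as Fkbp5 and Sgk1 through the stress hormone receptor, and, in many tissues, heat-shock chaperones. Here the brains were taken days after testing began, by the ages in the labels, so these gene groups were followed as lists beside all genes. The lists were chosen with earlier results of these data known, so their counts are descriptions and not tests.

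The arrays carried their tissue labels in their marker genes. The mean log2 level of 12 striatal neuron markers was 13.52 in striatum against 7.70 in hippocampus and 7.86 in brainstem. The 10 hippocampal neuron markers stood at 9.98 in hippocampus against 6.01 and 5.47 in striatum and brainstem, and the 13 brainstem markers at 9.04 in brainstem against 4.25 and 3.89 in hippocampus and striatum. Hippocampus arrays had medians of 4.53 to 4.72. Those of striatum were 4.17 to 4.31 and those of brainstem 4.43 to 4.57. Some arrays stood apart, and 3 were left out together as an alternative. On the second untested C3H HeJ brainstem array cerebellar markers were 4.41 above the median of the brainstem arrays, on the tested BalbC/J striatum array cortical markers were 0.94 above that of striatum, and on the tested C57L/J striatum array they were 0.74 below it. Untested striatum arrays varied as much in cortical markers, at the extremes from -1.04 (C57BL6/J) to 1.56 (the second of C57L/J). The 3 arrays left out were those of C3H HeJ brainstem, BalbC/J striatum and tested C57L/J striatum. They are not the only ones that deviated, and without its tested array a striatum group says nothing of testing.

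No gene differed between tested and untested mice when all tissues and strains were pooled. In limma's moderated test with the 18 strain-by-tissue groups as blocks, 0 of 11606 genes (0%) passed an adjusted p of 0.05, and the smallest adjusted p was 0.998. At an unadjusted p under 0.05 there were 413 genes (3.56%), of which 289 (2.49%) were higher and 124 (1.07%) lower in tested mice. The fitted differences, tested minus untested on the log2 scale, had a median of 0.002 and ran from -0.57 for Cldn2, a choroid plexus tight-junction protein, to 0.58 for Hspa1b, an inducible heat-shock protein. Only 3 genes exceeded 0.5 in size.

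The precision bounds how large a shared shift could have been. The median standard error of a gene's difference was 0.0391. For 10834 genes (93.3%) the 95% interval lay within 0.25 of 0 on the log2 scale, which is a 1.19-fold change either way. It lay within 0.5, or 1.41-fold, for 11520 genes (99.3%), and within 0.1, or 1.07-fold, for 5118 genes (44.1%). These intervals treat the tissues of a strain as separate measurements. With 1 value per strain, the mean over its tissues, 0 genes passed as well and 272 had an unadjusted p under 0.05.

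**Figure D1:**
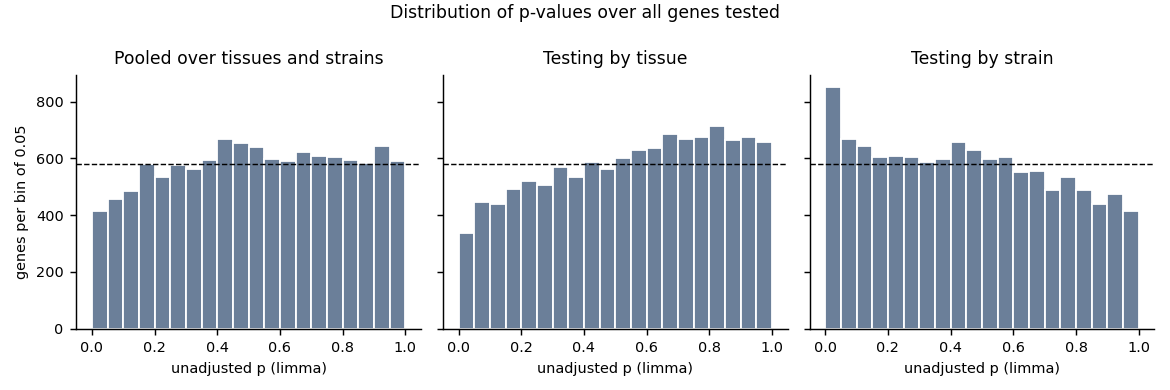
Number of genes (vertical axis) in 20 bins of the unadjusted limma p (horizontal axis) for the pooled tested-minus-untested term, for its difference between tissues and for its difference between strains, over 11606 genes; the dashed line is an equal share per bin. The lowest bin holds 413 genes for the pooled term, 337 for the difference between tissues and 853 for the difference between strains.

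The direction of the difference was shared by all 3 tissues in 3014 genes (26.0%), 1663 of them higher (14.3%) and 1351 lower (11.6%). The 413 genes with the smallest pooled p included 358 of these, which is a count the pooled fit itself favours. A shift of the same sign with an unadjusted p under 0.05 in each of the 3 tissues was found in 0 genes, and in at least 2 tissues in 18 genes. Within single tissues 0 genes passed in hippocampus, striatum or brainstem, with 459, 450 and 259 genes at an unadjusted p under 0.05 and smallest adjusted p-values of 0.469, 1.00 and 0.989 (limma). No gene had 1 sign in all 18 strain-by-tissue differences. The most was 16 of 18, reached by 8 genes on the higher and 2 on the lower side, and 207 genes had 1 sign in all 6 strains once tissues were averaged.

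None of the 24 genes with the smallest pooled p passed the adjustment, and all had differences under 0.34 in size, 19 of them above 0. Pus7, which modifies uridine in RNA, had the smallest p. Its mean level was 8.95 on tested and 8.83 on untested arrays, a difference of 0.12 ± 0.029 (SE, unadjusted p = 0.000247, adjusted p = 0.998, limma). It was higher in 16 of 18 strain-by-tissue groups and in all 6 strains, by 0.06, 0.15 and 0.14 in hippocampus, striatum and brainstem. In hippocampus its level on the tested array lay between 8.76 and 9.50 over the strains, and on untested arrays between 8.66 and 9.43, so the groups overlapped widely once strains were mixed. Socs4, an inhibitor of cytokine signalling, was 9.72 against 9.61 (0.11 ± 0.029), Prdm4, a zinc-finger regulator of transcription, 7.70 against 7.58 (0.12 ± 0.034), and Clic4, an intracellular chloride channel protein, 11.87 against 11.74 (0.13 ± 0.037). Each of those 3 was higher in 16 of 18 groups.

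The remaining genes among the 24 had small differences too. Swt1 differed by 0.18, Arrdc3, an arrestin-like protein, by 0.17, Ly86, a surface protein of immune cells, by 0.14, Siah2, a ubiquitin ligase, by 0.14, and Mtrf1l, a mitochondrial release factor, by 0.12. Tenm2, an adhesion protein of synapses, differed by 0.11, Tead3, a transcription factor, by 0.10, Jmjd6 and Atad2b by 0.10 each, and Lcmt1 and Tut1 by 0.08 each. Cenpw, a centromere protein, Trim41 and Rnf10 were on the lower side, at -0.11, -0.08 and -0.07. These were higher in 11 to 15 of the 18 groups on the upper side and in 4 to 7 on the lower.

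Zmym1, a zinc-finger gene, had the largest of these 24 differences, 8.42 against 8.09 (0.33 ± 0.095). Its largest gaps lay in BalbC/J and C57BL10/J. The C57BL10/J hippocampus arrays read 7.62 tested against 6.24 and 6.10 untested, the BalbC/J striatum arrays 9.88 against 8.47 and 8.11, and the C57BL10/J striatum arrays 5.35 against 4.97 and 4.30. Averaged over tissues it differed by 0.89 in BalbC/J and 0.76 in C57BL10/J, and by between -0.009 and 0.14 in the other strains. Banp, a nuclear DNA-binding protein, was 7.30 against 7.05 (0.25 ± 0.065), with its largest gaps in the striatum of C3H HeJ (7.43 against 6.66 and 6.29) and of BalbC/J (7.63 against 6.45 and 6.54). Lipa, the lysosomal acid lipase, was 7.55 against 7.31 (0.24 ± 0.066) on its brightest probe set, but its other 2 probe sets, of nearly the same brightness, differed by 0.01 and 0.05. On the lower side, Col19a1, a collagen, was 7.84 against 8.06 (-0.23 ± 0.066) and Rspo3, an enhancer of Wnt signalling, 6.16 against 6.36 (-0.20 ± 0.058). Their differences were -0.45 and -0.42 in striatum and -0.08 and -0.04 in hippocampus, and neither gene passed in any tissue. Another Col19a1 probe set past the filter, of lower mean level, differed by -0.089.

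**Figure D2:**
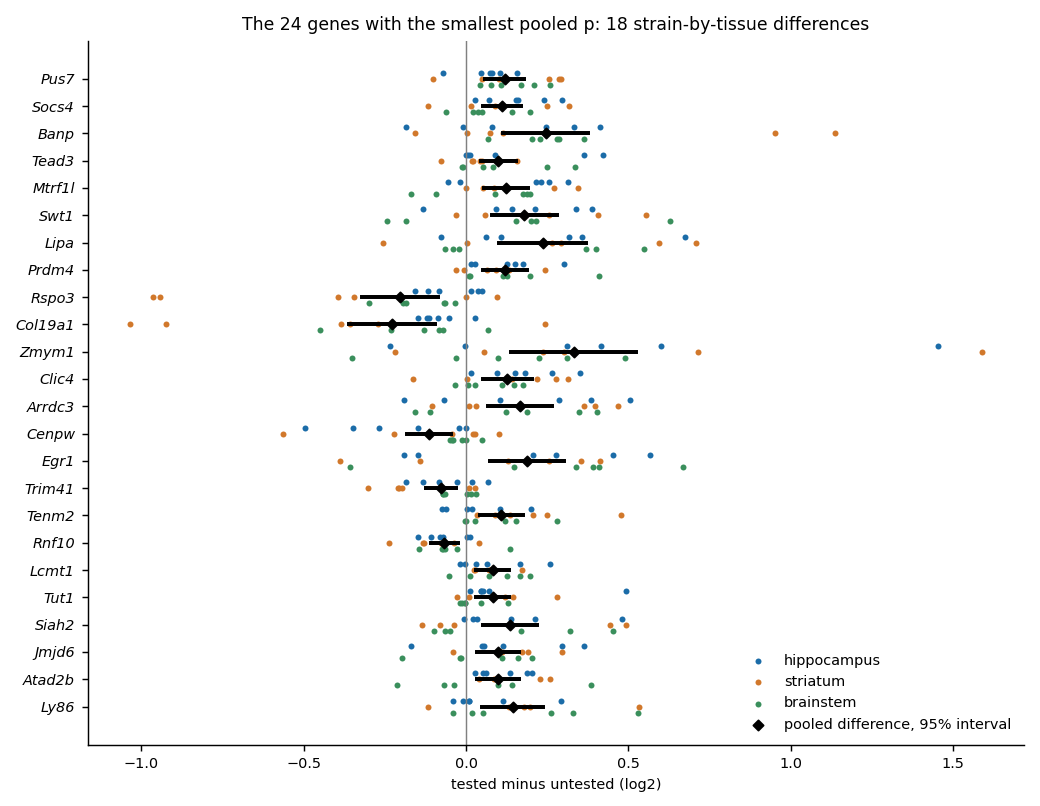
Tested minus untested log2 difference (horizontal axis) in each of the 18 strain-by-tissue groups, coloured by tissue, for the 24 genes with the smallest pooled p; black diamonds and bars are the pooled difference and its 95% interval. No gene has all 18 points on 1 side of 0, and the pooled differences run from -0.23 for Col19a1 to 0.33 for Zmym1.

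No gene list gave a call. Over the 15 pathway lists the median pooled difference lay between -0.04 (AMPA and NMDA receptors) and 0.11 (4 interferon-related genes), beside 0.002 for all genes, and 0 members of any list passed the adjusted threshold. Above 0 were 20 of 24 activity-regulated genes (median 0.04), 18 of 23 chaperones (0.03) and 33 of 40 cytosolic ribosomal proteins (0.01), where 52.6% of all genes were above 0. Glucocorticoid-responsive genes had 12 of 18 above 0 (median 0.03) and the circadian clock 10 of 17 (0.002). Synaptic and plasticity genes had 6 of 20 above 0 (median -0.01) and AMPA and NMDA receptor subunits 1 of 8. Of the 24 activity-regulated genes, 11 were higher in all 3 tissues and 0 lower in all 3, where 14.3% and 11.6% of all genes were.

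Among activity-regulated genes the 3 with the smallest p were Egr1, Fos and Arc, transcription factors and a synaptic scaffold protein that neurons make within minutes of firing. Egr1 was 11.54 on tested and 11.35 on untested arrays, a difference of 0.19 ± 0.056 with a 95% interval of 0.07 to 0.30. It was higher in 13 of 18 groups. The strains split evenly, though, with 3 of 6 higher on average over tissues, among them BalbC/J (hippocampus 12.44 tested against 11.86 and 11.88) and C57BL10/J (12.03 against 11.54 and 11.61). Fos differed by 0.35 ± 0.15 with an interval of 0.06 to 0.65, and Arc by 0.22 ± 0.12 with an interval of -0.02 to 0.46. Of the others, Nr4a2 had the widest interval, from -0.64 to 0.68, and Sik1, a salt-inducible kinase, the narrowest, from -0.04 to 0.06.

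Of glucocorticoid-responsive genes, Pdk4, a kinase that shuts glucose carbon out of the mitochondrion, differed by 0.25 ± 0.085, Nfkbia, the inhibitor of NF-kappa-B, by 0.16 ± 0.068, and Sgk1, a kinase induced by the stress hormone receptor, by 0.25 ± 0.12. Fkbp5, which dampens the glucocorticoid receptor, differed by 0.03 ± 0.080, and Klf9, a hormone-induced transcription factor, by -0.004 ± 0.036. Among chaperones Dnajb1 and Hsph1, co-chaperones of the inducible heat-shock proteins, differed by 0.17 ± 0.059 and 0.09 ± 0.032, and Hspa1b by 0.58 ± 0.22. The abundant chaperones were tightly bounded, with intervals of -0.02 to 0.06 for Hspa8 and -0.02 to 0.04 for Hsp90aa1.

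Candidate genes of prepulse inhibition and schizophrenia had 11 of 16 members above 0 with a median of 0.03, and all 16 intervals lay within 0.5 of 0. Dtnbp1, which takes part in vesicle traffic at the synapse, differed by 0.05 ± 0.030, Fabp7, a fatty-acid carrier of radial glia and astrocytes, by 0.11 ± 0.073, and Rgs4, a brake on G-protein signalling, by 0.07 ± 0.050. Pdxdc1, an enzyme of the decarboxylase family, was read by 4 probe sets. Its brightest one differed by 0.06 ± 0.062, with an interval of -0.07 to 0.18, and the other 3 by 0.04, -0.03 and 0.02. On the brightest probe set its level in hippocampus ran from 7.62 to 9.07 on tested and from 7.20 to 8.88 on untested arrays, a range set by strain, with C3H HeJ and BalbC/J lowest.

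Receptor and transmitter genes gave no call. Gria4, an AMPA receptor subunit, differed by -0.10 ± 0.044 and Grin2b, an NMDA receptor subunit, by -0.08 ± 0.058. Camk2a, the main calcium-dependent kinase of the synapse, differed by -0.27 ± 0.12 on its brightest probe set. Its next 2 in brightness, which also passed the filter, differed by -0.055 and -0.061. In the striatum of C57L/J the brightest read 10.89 tested against 12.11 and 12.72 untested, on arrays whose cortical markers also stood apart. The part of cortical tissue in that difference was not tested. Glrb and Glra2, glycine receptor subunits that carry inhibition in the startle circuit, differed by -0.02 ± 0.024 and 0.09 ± 0.15.

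Cell and tissue markers, which would move with a change in cell number or dissection, had pooled medians between -0.19 (9 choroid plexus genes) and 0.11 (8 thalamic genes), and in bulk tissue fewer cells of a type and less RNA per cell cannot be told apart. Choroid plexus differences had opposite signs in the tissues, with medians of -1.15 (hippocampus), 1.12 (striatum) and -0.41 (brainstem), and the genes with the lowest pooled differences, Cldn2 (-0.57 ± 0.33) and F5 (-0.48 ± 0.36) were mixed in sign over the tissues too. The part of choroid plexus in these differences was not tested. Oligodendrocyte, astrocyte and microglia markers had medians of 0.04, 0.007 and 0.008.

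Whether the difference changed from tissue to tissue was tested directly, and 0 genes passed (limma F test, 0%), with 337 at an unadjusted p under 0.05 and a smallest adjusted p of 0.451. The 5 smallest p-values belonged to Trav9d-3, Zbtb20, Pcdhb15, Zfp87 and Tnrc18. Zbtb20, a zinc-finger gene of hippocampal neurons, differed by 0.02, 0.46 and -0.03 in hippocampus, striatum and brainstem, and Trav9d-3, a T-cell receptor segment, by 0.02, -0.03 and 0.53.

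The difference was not the same in every strain. The tested-minus-untested difference varied between strains for 46 genes (limma F test, 0.396%), and 853 genes had an unadjusted p under 0.05. Each of the 46 genes had 1 sign across the 3 tissues of the strain where its difference was largest, where 49.9% of all genes did, and for 44 of them the tested array lay outside both untested arrays in all 3 tissues of that strain, where 24.5% did. The choice of genes by this test raises both counts. The strain with the largest difference was C57BL10/J for 15 genes, BalbC/J for 12, C3H HeJ and C57L/J for 9 each, C57BLKS/J for 1 and C57BL6/J for 0.

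This count rests on treating the tissues of a strain as separate measurements although they shared mice. So do the standard errors and p-values given for single strains below, which may therefore be too small. With values averaged over tissues by strain, status and replicate number, 18 in all, the same F test passed 10 genes, 7 of the 46 among them (Iigp1, AW112010, Plin4, Sult1a1, Gbp7, Gbp3 and Mertk) and in addition Fabp7, Jun and Slc17a6. The 7 had their largest difference in C3H HeJ or C57BL10/J, and none of them in BalbC/J or C57L/J. The additional 3 had theirs in BalbC/J. All 46 kept an unadjusted p under 0.05 in that fit. The labels do not tie a number to the same mice in every tissue, so which untested arrays were averaged together is arbitrary. Without the 3 arrays that stood apart the count on single arrays was 41, of which 31 were among the 46. When arrays were left out in turn, 16 of the 46 genes passed all 54 times. The least stable were Aff1, Dhcr7, Cldn5, Osmr and Prodh, which passed 11, 12, 14, 14 and 18 times. For 9 of the 46 genes another probe set passed the filter, and all 9 gave the same sign and at least 0.5 of the size.

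**Figure D3:**
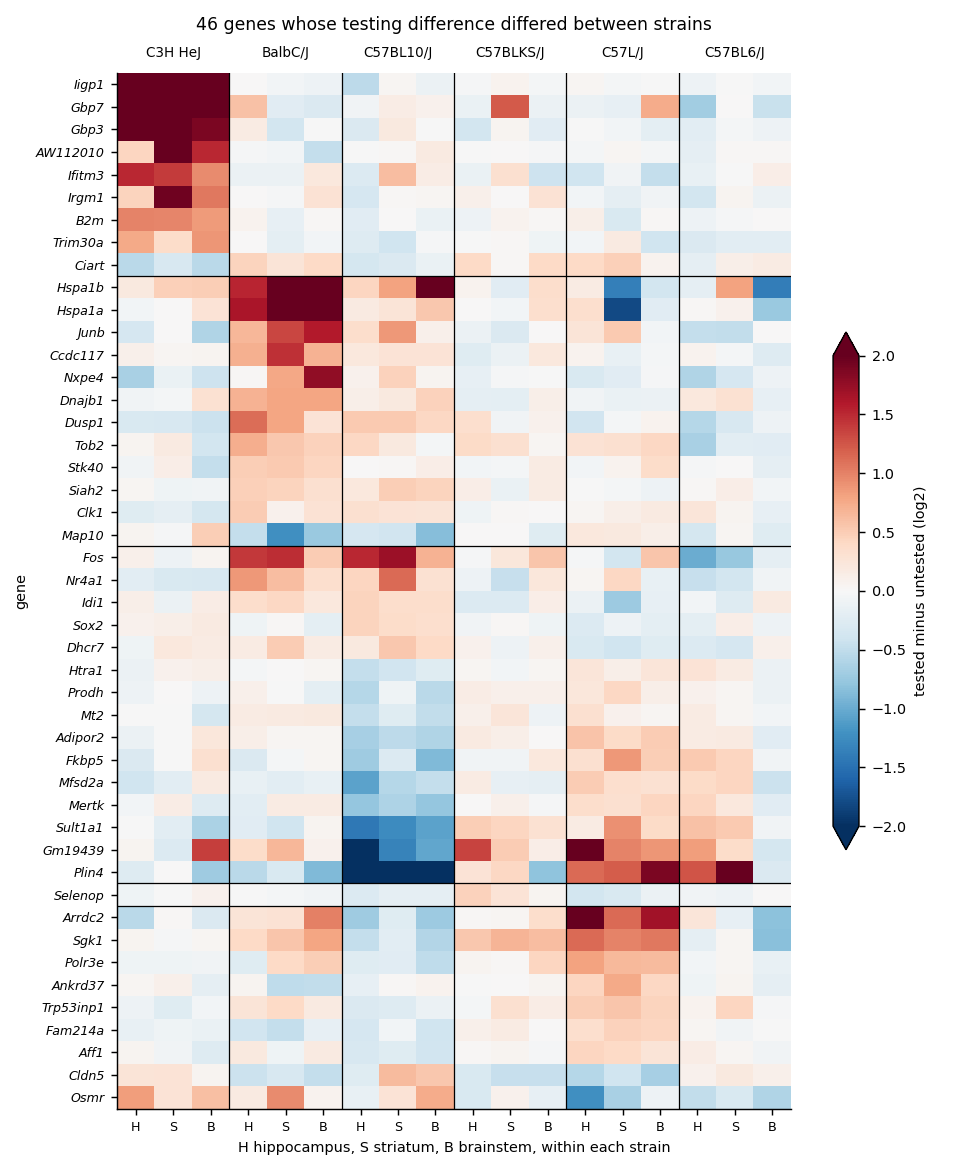
Tested minus untested log2 difference (colour, capped at 2 either way) in hippocampus (H), striatum (S) and brainstem (B) of each strain for the 46 genes whose difference varied between strains, ordered by the strain with the largest difference. The blocks of colour span the 3 tissues of a strain: 8 genes are higher in tested C3H HeJ, 11 in tested BalbC/J, and 10 are lower in tested C57BL10/J.

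In tested C3H HeJ mice interferon-induced genes were higher in all 3 tissues. Iigp1, an interferon-inducible GTPase that attacks the vacuoles of intracellular parasites, read 6.97 on the tested hippocampus array against 3.89 and 3.81 untested. It read 6.75 against 3.28 and 3.64 in striatum, and 7.70 against 3.95 and 3.69 in brainstem. On all 51 other arrays it stayed between 3.09 and 4.85, tested and untested alike, so the 3 tested C3H HeJ arrays stood alone. Its difference was 3.43 ± 0.13 (SE, adjusted p = 4.45e-20 within the strain and 1.74e-16 for the difference between strains, limma).

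The other members of this group were of the same kind. Gbp3 and Gbp7, guanylate-binding proteins of the same defence, differed by 2.16 ± 0.17 and 2.33 ± 0.21. Gbp3 read 8.82 against 6.70 and 6.28 in hippocampus, 8.63 against 6.40 and 6.31 in striatum, and 9.60 against 8.19 and 7.26 in brainstem, with no overlap. AW112010, an interferon-inducible transcript, differed by 1.38 ± 0.15, Ifitm3, which blocks virus entry, by 1.28 ± 0.15, Irgm1, another immunity-related GTPase, by 1.14 ± 0.16, and Trim30a, a regulator of innate immune signalling, by 0.67 ± 0.11. Irgm1 exceeded the filter's percentile on only 3 striatum arrays, the fewest that the filter allows. Its place among the genes tested may therefore rest on the tested C3H HeJ array. B2m, the light chain of MHC class I, is abundant in all strains and still differed by 0.94 ± 0.087, reading 12.34 against 11.49 and 11.23 in hippocampus, 11.67 against 10.66 and 10.71 in striatum, and 12.89 against 12.31 and 11.75 in brainstem. These 8 genes passed within the strain too, where 0.103% of genes were called higher. In the fit on values averaged over tissues, B2m, Ifitm3, Irgm1 and Trim30a did not pass between strains. Averaged over tissues, the differences of the 8 genes in the other 5 strains stayed between -0.38 (Gbp7 in C57BL6/J) and 0.33 (Gbp7 in C57BLKS/J). In single tissues of those strains they ran from -0.69 (Gbp7 in C57BL6/J hippocampus) to 1.23 (Gbp7 in C57BLKS/J striatum).

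The interferon-related list was also higher in C3H HeJ. It was chosen with earlier results of these data known and includes Ifitm3, 1 of the genes called, so it is not a separate test. Of its 12 genes 10 had a probe set and 4 passed the filter on low values, and of those 4, 3 were higher in all 3 tissues of C3H HeJ, where 13.1% of all genes were, and 2 passed within the strain. With the filter set aside, 10 of 10 were above 0 in C3H HeJ, with a median of 0.97 and 8 higher in all 3 tissues. Without the filter 12279 of all 18193 genes were above 0 in this strain, with a median of 0.03, and 9.69% were higher in all 3 tissues. The list had 2 to 5 of 10 above 0 in each other strain and medians between -0.06 and 0.008. Microglia markers, from the immune cells of brain tissue, were above 0 in 11 of 11 cases in C3H HeJ with a median of 0.14, with 0.007 in its hippocampus, 0.07 in its striatum and 0.37 in its brainstem. Over the tested arrays of all strains their mean level was 8.34 to 8.84 in hippocampus. It was 8.62 to 8.98 in striatum and 7.88 to 8.26 in brainstem. Untested brainstem arrays reached from 7.13 to 8.34, and the lowest was the second untested C3H HeJ array, where the tested array read 7.88 and the other untested one 7.83. Without that array the microglia median in C3H HeJ brainstem was 0.07, with 7 of 11 above 0, and the endothelial one 0.01. Endothelial markers in C3H HeJ had a median of 0.20 and choroid plexus markers one of 1.28. The part of these cell types in the difference was not tested. In brainstem the second untested array, rich in cerebellar markers, was the lower untested value for Gbp3 and B2m, while the tested array lay above both.

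Promoters of this group were read for the motif to which interferon-activated STAT and IRF proteins are known to bind, the interferon-stimulated response element, searched on both strands as the letters GAAA, 2 bases of any kind, and GAAA again. The window was the 250 bases before the transcription start in RefSeq (build GRCm38.p6). Of the 9 genes 8 had a window that was read, and Iigp1 had none. Promoters of 1 chromosome were left out of the search and of the shares. A gene with several windows was counted once, if any of them held the motif. By that count 5 of the 8 genes held it, where 936 of 27025 genes did, or 2.98% of 32851 promoter windows. In the other strains' groups it was in 0 of the 14 genes read of C57BL10/J and 0 of 9 of BalbC/J. It was in 1 of the 8 genes of C57L/J (Sgk1) and the 1 gene of C57BLKS/J (Selenop). Another 5 motifs were searched on both strands in all groups. The gamma-activated site TTCNNNGAA was in 2197 of all 27025 genes (7.02% of windows). It was in 1 of the 8 genes of C3H HeJ (Gbp7), 1 of C57BL10/J (Prodh) and 1 of C57L/J (Sgk1). The heat-shock element was searched as GAA, 2 bases of any kind, TTC, 2 of any kind, and GAA. Held by 139 of all genes (0.466% of windows), it was in 0 of the 9 genes of BalbC/J and in no other group. The glucocorticoid response element was searched as G, any base, ACA, 3 of any kind, TGT, any base, and C. It was held by 119 of all genes (0.387% of windows). It was in 0 of the 14 genes of C57BL10/J and 1 of the 8 of C57L/J (Sgk1), and in no other group. The serum response element, in 20 of all genes (0.0609% of windows), was in no group. The cyclic AMP response element TGACGTCA, in 478 of all genes (1.55% of windows), was in 1 gene (Dusp1 of BalbC/J). The 5 windows of the C3H HeJ group with the interferon-stimulated response element are shown 5′ to 3′ on the gene's strand with the matches in capitals, since they show how near the start the matches lie. In Gbp3 and Irgm1 a pair of matches overlap each other. A match here is a string of letters, not a measured binding site.
Gbp3 (chr3:142559794-142560043, + strand): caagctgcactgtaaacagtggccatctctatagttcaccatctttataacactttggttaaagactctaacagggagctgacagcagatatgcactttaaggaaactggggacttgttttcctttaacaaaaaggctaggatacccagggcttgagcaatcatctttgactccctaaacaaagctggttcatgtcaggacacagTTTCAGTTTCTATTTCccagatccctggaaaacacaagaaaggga
Gbp7 (chr3:142530086-142530335, + strand): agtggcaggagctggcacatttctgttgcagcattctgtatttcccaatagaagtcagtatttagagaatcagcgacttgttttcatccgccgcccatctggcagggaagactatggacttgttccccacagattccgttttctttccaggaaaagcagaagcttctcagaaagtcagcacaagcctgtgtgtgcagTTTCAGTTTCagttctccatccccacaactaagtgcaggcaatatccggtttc
Irgm1 (chr11:48871421-48871670, - strand): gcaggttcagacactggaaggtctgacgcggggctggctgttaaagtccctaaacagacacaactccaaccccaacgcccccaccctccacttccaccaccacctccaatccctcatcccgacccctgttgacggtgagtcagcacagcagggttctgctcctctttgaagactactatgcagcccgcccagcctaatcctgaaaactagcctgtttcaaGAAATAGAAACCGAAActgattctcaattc
B2m (chr2:122147437-122147686, + strand): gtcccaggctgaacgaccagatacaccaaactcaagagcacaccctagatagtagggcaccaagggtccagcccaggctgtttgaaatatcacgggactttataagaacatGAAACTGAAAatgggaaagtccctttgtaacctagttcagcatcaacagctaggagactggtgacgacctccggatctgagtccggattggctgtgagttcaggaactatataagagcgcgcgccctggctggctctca
Trim30a (chr7:104465194-104465443, - strand): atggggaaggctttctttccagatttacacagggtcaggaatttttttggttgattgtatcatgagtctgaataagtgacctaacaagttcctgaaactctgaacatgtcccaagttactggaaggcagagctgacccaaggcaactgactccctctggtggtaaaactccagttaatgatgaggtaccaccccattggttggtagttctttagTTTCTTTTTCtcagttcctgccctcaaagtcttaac

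Ciart, a repressor within the circadian clock, was the 1 gene of the C3H HeJ group with a lower value, -0.47 ± 0.11, which passed the test between strains (adjusted p = 0.00384, limma) but not within C3H HeJ (0.0859). It read 6.80 against 7.32 and 7.37 in hippocampus and 8.95 against 9.31 and 9.22 in striatum. In BalbC/J, C57BLKS/J and C57L/J its differences were 0.36, 0.27 and 0.31.

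On the tested BalbC/J arrays inducible chaperones and immediate early genes were higher. Of the 46 genes, none with its largest difference in BalbC/J passed between strains on values averaged over tissues. Hspa1b read 11.85 tested against 10.43 and 10.21 in hippocampus, 11.79 against 9.16 and 7.02 in striatum, and 12.73 against 10.69 and 9.14 in brainstem, a difference of 2.68 ± 0.38. All 3 of its probe sets agreed, at 2.68, 2.88 and 2.95. Hspa1a, its near-identical neighbour, differed by 2.65 ± 0.32, and since the probe sets may take up RNA of both genes, they are not separate measurements. Dnajb1 differed by 0.75 ± 0.097, reading 11.82 against 11.20 and 11.06 in hippocampus, 11.62 against 10.99 and 10.68 in striatum, and 12.48 against 11.88 and 11.51 in brainstem. The tested arrays stood above both untested arrays in every tissue for these 3 genes, while the untested striatum arrays of BalbC/J were themselves far apart for Hspa1b. Of 23 chaperones 10 were higher in all 3 tissues of BalbC/J, where 11.3% of all genes were, and 3 passed within the strain, where 0.146% did. Their median there was 0.07. The list as a whole was not particular to BalbC/J, with 8 of 23 higher in all 3 tissues of C3H HeJ (median 0.08) and 9 of 23 in C57BL10/J (median 0.07), none of them called in those strains.

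Junb, an AP-1 transcription factor, read 9.73 against 9.14 and 8.98 in hippocampus, 10.37 against 9.20 and 8.89 in striatum, and 6.26 against 4.67 and 4.68 in brainstem of BalbC/J, a difference of 1.19 ± 0.17. Dusp1, a phosphatase that ends MAP kinase signals and responds to both activity and glucocorticoid, differed by 0.73 ± 0.16. Siah2 and Tob2, a ubiquitin ligase and an antiproliferative protein, differed by 0.41 ± 0.074 and 0.57 ± 0.12, Stk40, a kinase, by 0.48 ± 0.081, and Ccdc117 by 0.96 ± 0.11. Map10, a microtubule-associated protein, was lower by 0.81 on the log2 scale, at -0.81 ± 0.13. The activity-regulated list had 14 of 24 genes higher in all 3 tissues of BalbC/J, where 11.3% of all genes were, with a median of 0.36, and 3 were called higher, where 0.146% were. The glucocorticoid-responsive list had 12 of 18 higher in all 3 tissues of BalbC/J with a median of 0.20, and 1 called higher. Cortical neuron markers had a median of 0.33 there and choroid plexus markers one of -0.52, and the tested striatum array was the one with high cortical markers. The part of those tissues in the difference was not tested. Without the 3 arrays apart, which include it, Hspa1b differed by 2.17 in BalbC/J and no longer passed the test between strains (adjusted p = 0.156, limma). Hspa1a, Dnajb1 and Junb still passed, at 1.98, 0.74 and 1.13.

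In tested C57BL10/J mice the largest differences were downward and included genes induced by glucocorticoids. Plin4, a lipid-droplet coat protein whose RNA responds to glucocorticoid, read 2.84 tested against 6.55 and 5.15 in hippocampus, 2.92 against 6.13 and 5.61 in striatum, and 5.66 against 9.74 and 9.39 in brainstem. Here it was the untested C57BL10/J arrays that stood out, since the other strains' untested arrays lay between 2.85 and 3.61 in hippocampus and striatum and between 5.71 and 7.81 in brainstem. The difference was -3.29 ± 0.31 (adjusted p = 2.14e-08 within the strain, limma). In hippocampus and striatum the tested values lay below the 40th percentile of their arrays (3.29 and 3.19), so the size there rests on low readings. Plin4 exceeded the filter's percentile on only 5 hippocampus and 6 striatum arrays. Sult1a1, a sulfotransferase, differed by -1.26 ± 0.15 and again its untested C57BL10/J arrays were the highest of their tissue, at 8.77 and 8.46 in hippocampus, 8.71 and 8.63 in striatum, and 8.06 and 8.17 in brainstem.

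Other genes lower in tested C57BL10/J were Mertk, a receptor for the clearance of dead cells (-0.72 ± 0.11), Mfsd2a, the lipid transporter of the blood-brain barrier (-0.71 ± 0.13), Adipor2, an adiponectin receptor (-0.60 ± 0.11), Mt2, a metallothionein (-0.40 ± 0.076), Prodh, proline dehydrogenase (-0.40 ± 0.083), and Htra1, a secreted protease (-0.37 ± 0.066). Fkbp5 differed by -0.63 ± 0.14, with an adjusted p of 0.0171 between strains and 0.054 within C57BL10/J (limma). It read 10.53 against 11.29 and 11.20 in hippocampus, 10.43 against 10.81 and 10.61 in striatum, and 9.44 against 10.37 and 10.29 in brainstem, with no overlap. The glucocorticoid-responsive list had 11 of 18 genes lower in all 3 tissues of C57BL10/J, where 9.51% of all genes were, with a median of -0.31, and 3 called lower, where 0.103% were.

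Fos was higher in the same tested mice, by 1.31 ± 0.25, reading 9.93 against 8.51 and 8.32 in hippocampus, 9.61 against 8.11 and 7.68 in striatum, and 10.28 against 9.45 and 9.71 in brainstem. In BalbC/J Fos differed by a similar 1.13, and Arc by 0.95 against 0.91 in C57BL10/J. Nr4a1, an immediate early nuclear receptor, differed by 0.62 ± 0.16, and by 0.60 in BalbC/J, and Sox2, a transcription factor of stem and glial cells, by 0.38 ± 0.066. Idi1 and Dhcr7, enzymes of cholesterol synthesis, each differed by 0.38, with standard errors of 0.097 and 0.10. Of these, Nr4a1, Idi1 and Dhcr7 passed only the test between strains. The activity-regulated list had 10 of 24 genes higher in all 3 tissues, where 14.7% of all genes were, a median of 0.13, and 2 called higher, where 0.0517% were. Choroid plexus markers had a median of -1.30 in this strain, and their part in the difference was not tested.

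On the tested C57L/J arrays the glucocorticoid-responsive genes went the other way. Of the 46 genes, none with its largest difference in C57L/J passed between strains on values averaged over tissues. Arrdc2, an arrestin-like protein, read 6.66 against 4.31 and 4.42 in hippocampus, 5.31 against 3.79 and 4.57 in striatum, and 8.88 against 7.62 and 6.77 in brainstem, a difference of 1.70 ± 0.29. Sgk1 read 13.24 against 12.19 and 12.04 in hippocampus, 13.55 against 12.26 and 12.84 in striatum, and 14.45 against 13.91 and 12.89 in brainstem, a difference of 1.06 ± 0.21. Without the 3 arrays apart, which include the tested C57L/J striatum array, Sgk1 differed by 1.09 with an adjusted p of 0.0613 between strains (limma), and Arrdc2 still passed. Without the second untested C57L/J striatum array alone, both passed, Sgk1 at 1.14 and Arrdc2 at 1.86. Of 18 glucocorticoid-responsive genes 12 were higher in all 3 tissues of C57L/J, where 14.1% of all genes were, with a median of 0.45, and 3 were called higher, where 0.121% were. BalbC/J had the same count, and in C57BLKS/J 7 of 18 were higher in all 3 tissues, where 9.43% of all genes were, with 15 of 18 above 0, a median of 0.08 and 0 called. In C3H HeJ 7 of 18 were lower in all 3 tissues, where 12.1% were, with 0 called. Plin4, Fkbp5 and Sult1a1 differed by 1.41, 0.56 and 0.48 here, against -3.29, -0.63 and -1.26 in C57BL10/J. Of the 18 listed genes, 7 varied between strains by the F test, where 0.396% of all genes did. They were Plin4, Sult1a1, Fkbp5, Mt2, Sgk1, Arrdc2 and Dusp1, the last with its largest difference in BalbC/J. On values averaged over tissues only Plin4 and Sult1a1 among them still passed.

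The remaining genes with their largest difference in C57L/J were Polr3e, a subunit of RNA polymerase III (0.70 ± 0.12), Ankrd37 (0.53 ± 0.11), Trp53inp1, a p53 target (0.50 ± 0.078), Fam214a (0.41 ± 0.072) and Aff1, a transcription elongation factor (0.36 ± 0.086), with Cldn5, the tight-junction protein of brain vessels (-0.54 ± 0.14), and Osmr, the oncostatin M receptor (-0.66 ± 0.19), on the lower side. Aff1, Cldn5 and Osmr did not pass within the strain. Endothelial, cortical and choroid plexus markers had medians of -0.10, -0.48 and -0.66 in C57L/J, and their part was not tested.

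Few genes were called in the other strains. In C57BLKS/J Sgk1 and Pdk4 differed by 0.61 and 0.41, and Selenop, the plasma carrier of selenium, had its largest difference, 0.26 ± 0.062, which did not pass within the strain. In C57BL6/J no gene passed within the strain by limma, with 567 at an unadjusted p under 0.05. Activity-regulated genes had a median of -0.16 there, with 9 of 24 lower in all 3 tissues, where 9.56% of all genes were, and Fos differed by -0.65. Plin4 on the tested C57BL6/J arrays was above both untested arrays in hippocampus (4.24 against 3.05 and 2.90) and striatum (5.19 against 3.05 and 2.93) but between them in brainstem (6.13 against 6.02 and 6.81).

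**Figure D4:**
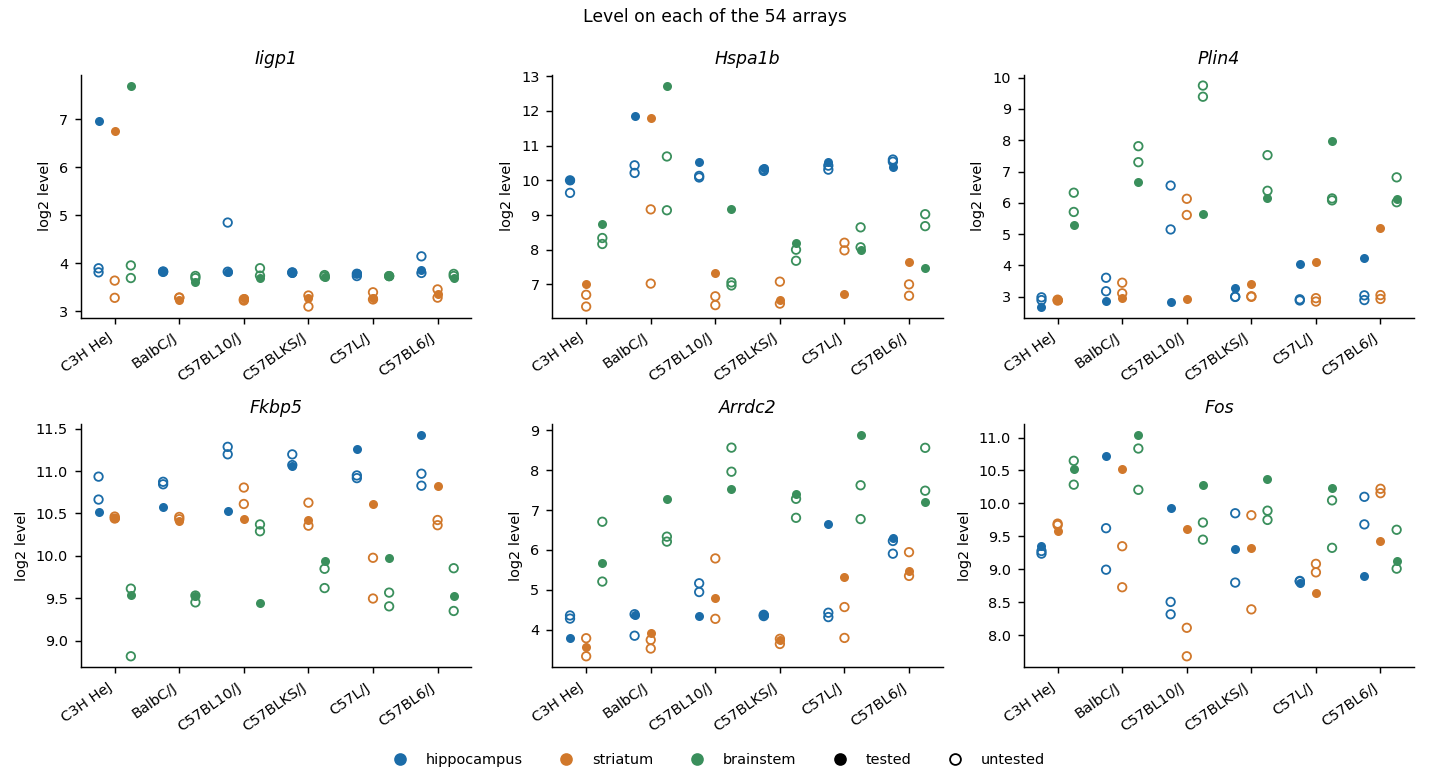
Log2 level (vertical axis) of Iigp1, Hspa1b, Plin4, Fkbp5, Arrdc2 and Fos on each of the 54 arrays by strain (horizontal axis), coloured by tissue, tested arrays filled and untested arrays open. Iigp1 is high on the 3 tested C3H HeJ arrays (6.75 to 7.70), and Plin4 is high on the untested C57BL10/J arrays of every tissue.

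Set side by side, the strain medians of a list lay on both sides of 0. The glucocorticoid-responsive list went from -0.31 in C57BL10/J to 0.45 in C57L/J, with C3H HeJ at -0.12, C57BL6/J at -0.06, C57BLKS/J at 0.08 and BalbC/J at 0.20. The activity-regulated list went from -0.16 in C57BL6/J to 0.36 in BalbC/J. Lists of ribosomal proteins and of complex I subunits, measured on the same arrays, stayed within 0.06 of 0 in every strain.

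**Figure D5:**
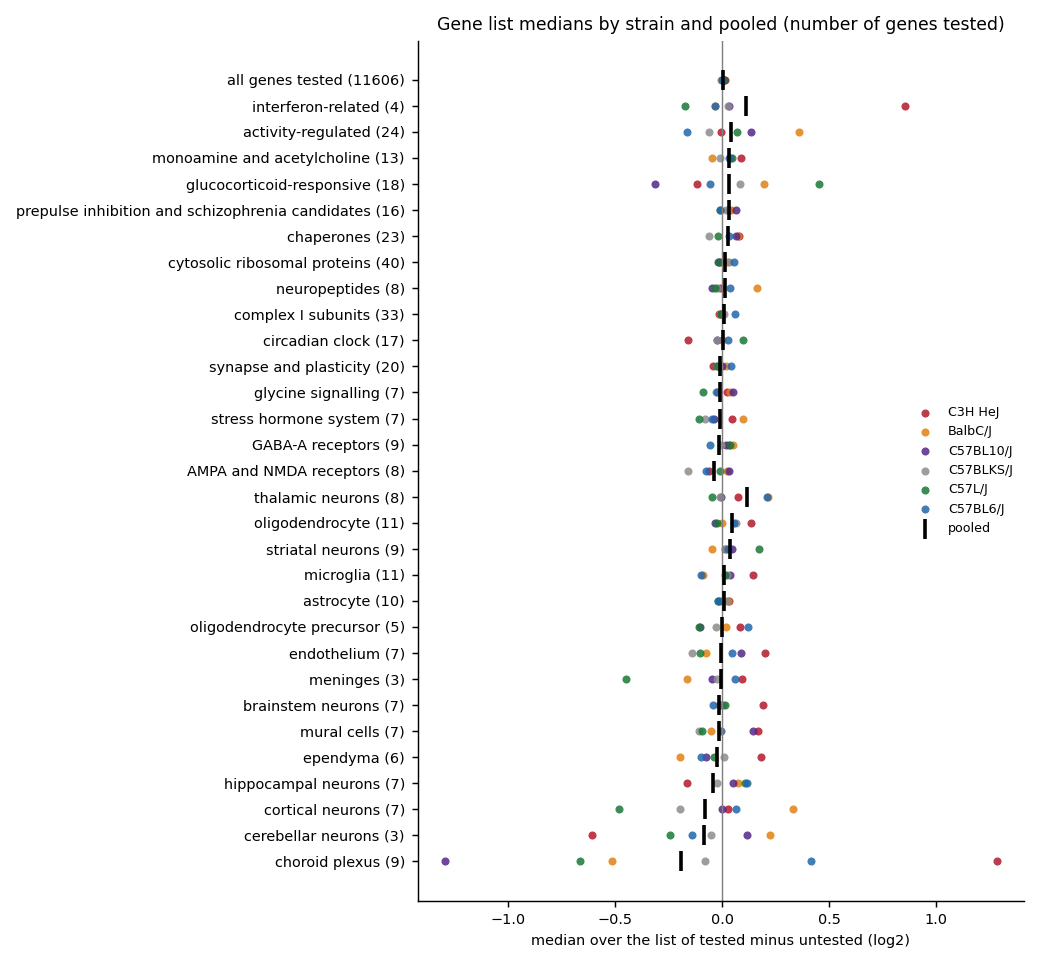
Median tested minus untested log2 difference (horizontal axis) over the tested genes of each list, with their number in brackets, in each strain (coloured points) and pooled (black bar); pathway lists stand above cell and tissue markers. Interferon-related genes (0.85 in C3H HeJ), glucocorticoid-responsive genes (-0.31 to 0.45) and choroid plexus markers (-1.30 to 1.28) differ between strains, while all pooled medians run from -0.19 to 0.11.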

How the data were processed

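RNA from pools of 3 mice was measured on Affymetrix mouse arrays. The deposited values are log2 expression levels of 45101 probe sets on 54 arrays. The submitters' processing notes name R 2.6.1, affy 1.16.0, RMA, GCRMA 2.10.0 and limma 2.12.0 without a role, so which summary method made the values is unknown here. For each of 18193 genes the probe set with the highest mean stood for the gene. Genes passed a filter (11606) when they exceeded the 40th percentile of the array on 3 or more arrays in every tissue, and were fitted in limma 3.58.1 (R 4.3.3) with strain-by-tissue blocks and a testing term, a mean-variance trend and two-sided p-values adjusted by Benjamini-Hochberg. A gene was called at an adjusted p under 0.05. Interaction F tests compared the testing difference between tissues and between strains. Intervals are 95%.

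Genes were named by a rule: the 24 smallest pooled p, up to 3 members of each list by p (not all are described), the 5 smallest p of each interaction test and Pdxdc1. Other genes, including the rest of the 46 called between strains, those with 1 sign in 16 groups and those with the widest or narrowest intervals, were chosen after their values were seen. The members and lists were chosen with earlier results of these data known. Marker lists are given mainly as medians. Replicate numbers were not taken as pairs, since not every correlation of same-numbered arrays between tissues was over 0.1: 4 of 18 were for hippocampus with striatum (median 0.010), 10 of 18 for hippocampus with brainstem (0.107) and 2 of 18 for striatum with brainstem (-0.013). Alternatives covered scaling, filter, probe-set rule, weights, blocks and left-out arrays, strains and tissues.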

Additional observations from a re-analysis of the deposited data

Results flagged for a closer look

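The difference between tested and untested mice varied between strains for 46 genes (limma F test, adjusted p under 0.05), and each is given by its value in the strain where it was largest. In C3H HeJ tested and untested arrays differed, on the log2 scale, for Iigp1 by 3.43, Gbp7 by 2.33, Gbp3 by 2.16, AW112010 by 1.38, Ifitm3 by 1.28, Irgm1 by 1.14, B2m by 0.94, Trim30a by 0.67 and Ciart by -0.47. In C57BL10/J tested and untested arrays differed, on the log2 scale, for Plin4 by -3.29, Gm19439 by -1.47, Fos by 1.31, Sult1a1 by -1.26, Mertk by -0.72, Mfsd2a by -0.71, Fkbp5 by -0.63, Nr4a1 by 0.62, Adipor2 by -0.60, Mt2 by -0.40, Prodh by -0.40, Idi1 by 0.38, Sox2 by 0.38, Dhcr7 by 0.38 and Htra1 by -0.37. In C57L/J tested and untested arrays differed, on the log2 scale, for Arrdc2 by 1.70, Sgk1 by 1.06, Polr3e by 0.70, Osmr by -0.66, Cldn5 by -0.54, Ankrd37 by 0.53, Trp53inp1 by 0.50, Fam214a by 0.41 and Aff1 by 0.36. In BalbC/J tested and untested arrays differed, on the log2 scale, for Hspa1b by 2.68, Hspa1a by 2.65, Junb by 1.19, Ccdc117 by 0.96, Nxpe4 by 0.86, Map10 by -0.81, Dnajb1 by 0.75, Dusp1 by 0.73, Tob2 by 0.57, Stk40 by 0.48, Siah2 by 0.41 and Clk1 by 0.30. In C57BLKS/J tested and untested arrays differed, on the log2 scale, for Selenop by 0.26. With values averaged over tissues by strain, status and replicate number, 10 genes passed the same test, 7 of them among the 46.

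The 6 strain differences were looked at in 25 genes, the 24 with the smallest pooled p and Pdxdc1. Of these, 2 had a strain far from the others by Dixon's criterion, which chance gives in about 1 of 20 groups. Tut1 differed by 0.26 in C57L/J, and Ly86 by 0.048 in C57BLKS/J, below its values in the other strains.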

How the results depend on the processing

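No gene was called in the pooled test under any alternative run. Genes at an unadjusted p under 0.05 numbered 413, 1154 with every probe set tested on its own, 657 with array quality weights, 272 with 6 strain values, and 322 to 551 with arrays, strains or tissues left out. With the replicate block they numbered 372, and 47 genes were called between strains. The correlation fitted within that block was 0.021 for the pooled term and -0.0024 for testing within strain, so both fits were nearly those without a block. They cannot show the effect of shared mice, since the labels do not tie a replicate number to the same mice. With no filter 6198 genes had the same sign in all tissues. Between tissues, 1 gene was called without the tested C57BLKS/J striatum array. Between strains the 46 calls became 10 averaged over tissues, 30 without the tested BalbC/J striatum array, and 11 to 67 over all left-out arrays, strains and tissues. They were 20, 17 and 29 without BalbC/J, C57BL10/J and C57L/J, and 11 and 12 without hippocampus and striatum. Median centring put 60.2% of genes above 0 and quantile scaling 46.6%, so small list medians carry no direction. The cause of these changes was not tested.

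Pooled differences that turned sign, none of them called, were those of Trim41 (0.0361), Ntrk2 (0.0124) and Psmb8 (0.0608) with the mean of a gene's probe sets, of Gabrg3 (-0.0104) and Glra2 (-0.0041) with array quality weights, and of Gabrg3 (-0.0314), Glra2 (-0.0304) and Nts (-0.0105) without the 3 arrays apart. With arrays, strains or tissues left out, 0 lay within the range of Vip, from -0.593 to 0.0238, Glra2 from -0.0527 to 0.239, Ifitm3 from -0.0478 to 0.271, Iigp1 from -0.0615 to 0.665, Gbp3 from -0.0981 to 0.369 and B2m from -0.0467 to 0.165. It also lay within that of Plin4, from -0.633 to 0.306, Sult1a1 from -0.195 to 0.153, Gabra3 from -0.365 to 0.0257, F5 from -0.972 to 0.0504, Crhbp from -0.35 to 0.0658 and Gabrb1 from -0.0901 to 0.00324. The same held for Gabrg3, from -0.028 to 0.156, Glrb from -0.0385 to 0.00432, Zbtb20 from -0.00259 to 0.239, Pcdhb15 from -0.189 to 0.0600, Tnrc18 from -0.0225 to 0.106 and Nrgn from -0.0123 to 0.178. It held too for Trav9d-3, from -0.00468 to 0.276 and Zfp87 from -0.0309 to 0.178.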
